A study of Homo sapiens with 26 samples.

Results

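Resistant tumors from 5 mice were compared with vehicle tumors from 5 mice, which are 10 of the 13 mice of the series. All were xenografts of ZR751 cells, a human breast cancer line positive for hormone receptors and negative for HER2, grown under the skin of female NSG mice, an immunodeficient strain. The members were taken from the group labels alone and from no measured value. Vehicle tumors were collected after 3 days of vehicle, labelled DMSO. Resistant tumors were collected after 84 to 91 days of atirmociclib (PF-07220060), an oral inhibitor of the kinase CDK4, at 60 mg/kg 2 times a day, in a study separate from the vehicle tumors. Another 3 mice carried sensitive tumors, treated with the same dose for 3 days beside the vehicle mice, and their values are given where they show how far a difference was present at 3 days. Tumors averaged 150 mm3 when dosing began, and collection was 3 hours after the last dose. No vehicle tumors of 84 to 91 days were analysed here, so drug exposure, time in the mouse and the separate study cannot be told apart. Each mouse gave 2 libraries, A and B, whose values were averaged, and values below are listed for vehicle mice 1-2, 1-4, 1-5, 1-6 and 1-9 and for resistant mice 9-3, 9-6, 9-7, 9-8 and 9-9, in that order.

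CDK4 and its relative CDK6, bound to a D-type cyclin, phosphorylate the retinoblastoma protein RB and thereby release E2F transcription factors, which switch on the genes for DNA synthesis. Genes for mitosis follow later in the cycle under the MuvB complex with MYBL2 and FOXM1. In hormone receptor positive breast cancer cells the gene for cyclin D1 is itself a target of the estrogen receptor, so that the hormone pathway and the cell cycle meet at CDK4.

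Luminal markers, chosen after their values were seen, were present in both groups: KRT8 lay at 2989.1 ± 705.5 TPM (a transcript level scaled for transcript length and library total; SD, n = 5) in vehicle and 3662.6 ± 589.6 TPM in resistant tumors, and GATA3 at 416.8 and 264.0 TPM on average. KRT8 was not called, but was called higher without vehicle mouse 1-5 (adjusted p = 0.0238). For all 20 libraries the nearest library was the second one of that mouse, with r between 0.989 and 0.994 over genes with a mean of at least 1 TPM in the 26 libraries. The first principal component of the 10 mice carried 58.72% of the variance and placed every vehicle mouse between -37.26 and -25.69 and every resistant mouse between 25.13 and 37.68. The second carried 14.05%, and on it vehicle mouse 1-5 stood at -38.66, apart from the other vehicle mice at -5.86 to 22.79. Of 14079 genes tested, 1624 were called higher and 4570 lower in resistant tumors, and without mouse 1-5 the counts were 1694 and 4437. Calls were made at an adjusted p under 0.05 over all genes tested.

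This split leans on how the samples are scaled. The median gene changed by -0.136 on the log2 scale, and the changes of single genes below are given relative to that median. Their adjusted p-values test the fitted change against 0, before that median was taken off. Changes against sensitive tumors are likewise relative to the median of that comparison, and their adjusted p-values are not. After median-of-ratios scaling the counts were 2541 higher and 2438 lower, and after quantile normalization 2343 and 2770. Under all 3 scalings 1587 genes were called higher and 2357 lower, which is 11.3% and 16.7% of the genes tested. On TPM as deposited alone the shares were 11.5% and 32.5%. The words rose and fell are kept here for genes called under all 3 scalings. Genes were tested if at least 3 mice reached 1 TPM. Of the genes that rose, 145 met this only with the resistant mice, and of those that fell, 114 met it only with the vehicle mice, so that these had to differ and their counts support nothing; they are pointed out below where they enter a list, named after their values were seen. The 1587 genes that rose held 6.29 ± 0.731% of all TPM in vehicle tumors and 14.2 ± 0.708% in resistant tumors (SD, n = 5 each), and the log2 ratio of the share left for all other genes was -0.13, resistant over vehicle. The 10 largest gains in mean TPM added up to 50241 TPM. Secreted luminal products led them: SCGB2A2 gained 21382.5 TPM, TFF1 11030 TPM and SCGB1D2 5094 TPM. Of the genes that rose, 486 changed by at least 1 on the log2 scale, and of those that fell, 330 did.

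**Figure D1:**
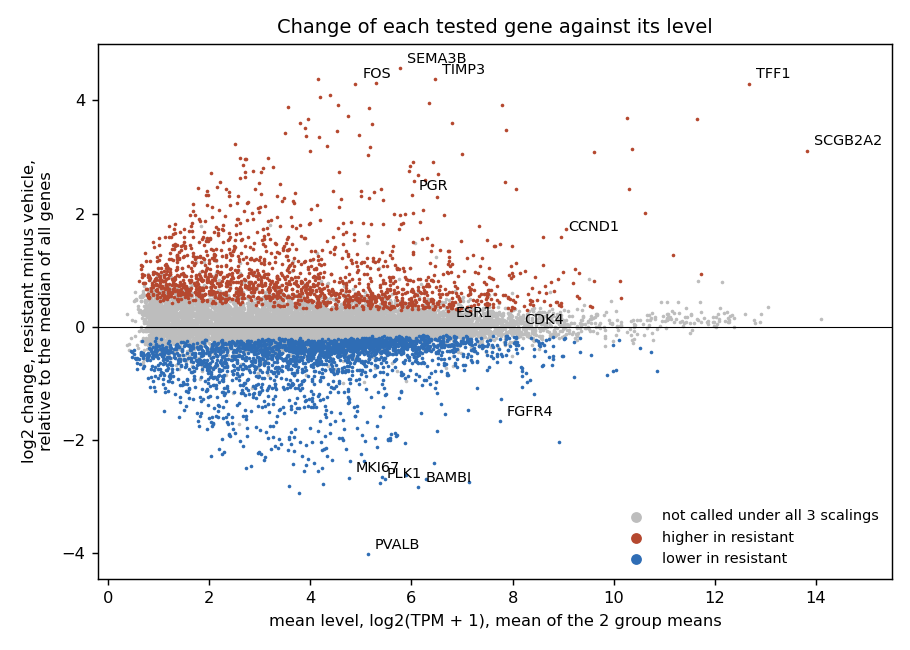
Each point is a gene tested, with its mean level as log2(TPM + 1) on the horizontal axis and its log2 change, resistant minus vehicle, relative to the median of all genes on the vertical axis. The 1587 genes that rose reach further from 0 than the 2357 that fell, and TFF1 and SCGB2A2 combine a large rise with a very high level, while ESR1 and CDK4 lie at the median.

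Mitosis genes were lower in every resistant tumor. Of 40 genes of the G2 phase and mitosis, all 40 were called lower, 39 of them under all 3 scalings, beside 16.7% of all genes, and the median member changed by -2.04. For 38 of the 40 every resistant mouse lay below every vehicle mouse, a separation seen in that direction for 20.6% of all genes. MKI67, the gene of the proliferation antigen Ki-67, stood at 58.2, 46.1, 36.2, 46.5 and 42.1 TPM in vehicle mice and at 8.47, 7.68, 8.91, 2.36 and 3.79 TPM in resistant mice. The groups did not overlap, and mice 9-8 and 9-9 were the lowest. The change was -2.66 ± 0.27 on the log2 scale (SE) with an adjusted p of 6.04e-06. PLK1, a kinase that drives entry into and passage through mitosis, stood at 79.6, 67.5, 54.8, 93.6 and 65.4 TPM in vehicle mice and at 9.46, 9.09, 11.7, 7.21 and 6.79 TPM in resistant mice, a change of -2.76 ± 0.17 with an adjusted p of 1.10e-07. AURKA, the spindle pole kinase Aurora A, had the smallest adjusted p of the list, 2.01e-09, at 81.3 ± 6.24 TPM in vehicle and 19.5 ± 1.3 TPM in resistant tumors. CENPA, the histone variant of centromeres, fell by 2.82 on the log2 scale, HMMR, a spindle and hyaluronan binding protein, by 2.78, and CCNB1, cyclin B1, by 1.93. KIF20A, a kinesin of late mitosis, showed the largest fall of the list, from 23.4 ± 4.38 TPM to 1.95 ± 0.676 TPM. The mitotic ubiquitin ligase partner UBE2C went from 246.9 to 33.8 TPM, securin (PTTG1) from 136.3 to 18.7 TPM and topoisomerase TOP2A from 102.5 to 14.8 TPM.

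Resistant tumors nonetheless stood above the sensitive tumors for these genes. In the resistant against sensitive comparison of the same model, 38 of the 40 were called higher, beside 9.56% of all genes. Both comparisons use the same resistant mice. MKI67 was 1.36 ± 0.55 TPM in the 3 sensitive tumors against 6.24 ± 2.97 TPM in resistant tumors (change 1.56, adjusted p = 0.00515), and PLK1 2.49 against 8.85 TPM (adjusted p = 0.000398). For both genes the means fell in the order vehicle, resistant, sensitive.

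The promoters of PLK1, HMMR and CENPA are shown as examples that hold both of the elements counted here, and were chosen after their values were seen. The 250 bases before the RefSeq start (build GRCh38.p14) were searched on both strands for TTTGAA, the cell cycle genes homology region or CHR, to which MuvB binds, and for CCAAT, the box bound by NF-Y. Both motifs are in capitals below, in either orientation, and adjoining or overlapping matches run together.
PLK1, chr16:23678639-23678888, plus strand: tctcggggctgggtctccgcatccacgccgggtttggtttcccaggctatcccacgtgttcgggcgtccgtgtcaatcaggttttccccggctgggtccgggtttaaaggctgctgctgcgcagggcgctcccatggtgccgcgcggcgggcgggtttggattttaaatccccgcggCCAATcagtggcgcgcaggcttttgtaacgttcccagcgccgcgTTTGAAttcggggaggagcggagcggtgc
HMMR, chr5:163460382-163460631, plus strand: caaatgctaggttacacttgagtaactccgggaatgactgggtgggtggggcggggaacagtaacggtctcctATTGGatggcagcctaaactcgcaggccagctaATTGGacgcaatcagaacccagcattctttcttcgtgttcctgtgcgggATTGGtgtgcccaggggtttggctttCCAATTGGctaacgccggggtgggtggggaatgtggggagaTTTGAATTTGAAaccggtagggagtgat
CENPA, chr2:26785806-26786055, plus strand: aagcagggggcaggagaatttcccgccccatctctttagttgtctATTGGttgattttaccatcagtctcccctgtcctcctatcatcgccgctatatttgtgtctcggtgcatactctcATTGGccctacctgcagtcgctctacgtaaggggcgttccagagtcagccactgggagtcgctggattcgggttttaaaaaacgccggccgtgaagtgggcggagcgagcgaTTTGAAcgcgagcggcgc
Of the 40 mitosis genes, 33 had a promoter in the table. TTTGAA was present in 19 of these 33 (57.6%) and in 13.6% of all 27305 promoters of that length. CCAAT was present in 25 of 33 (75.8%) against 33.0%, and both motifs together in 17 of 33 (51.5%) against 4.85%. Among 38 promoters of S-phase genes, TTTGAA was present in 1 and CCAAT in 21. Within the mitosis list the median change was -2.11 with TTTGAA and -2.24 without it. These are matches of letters and not measured binding.

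**Figure D2:**
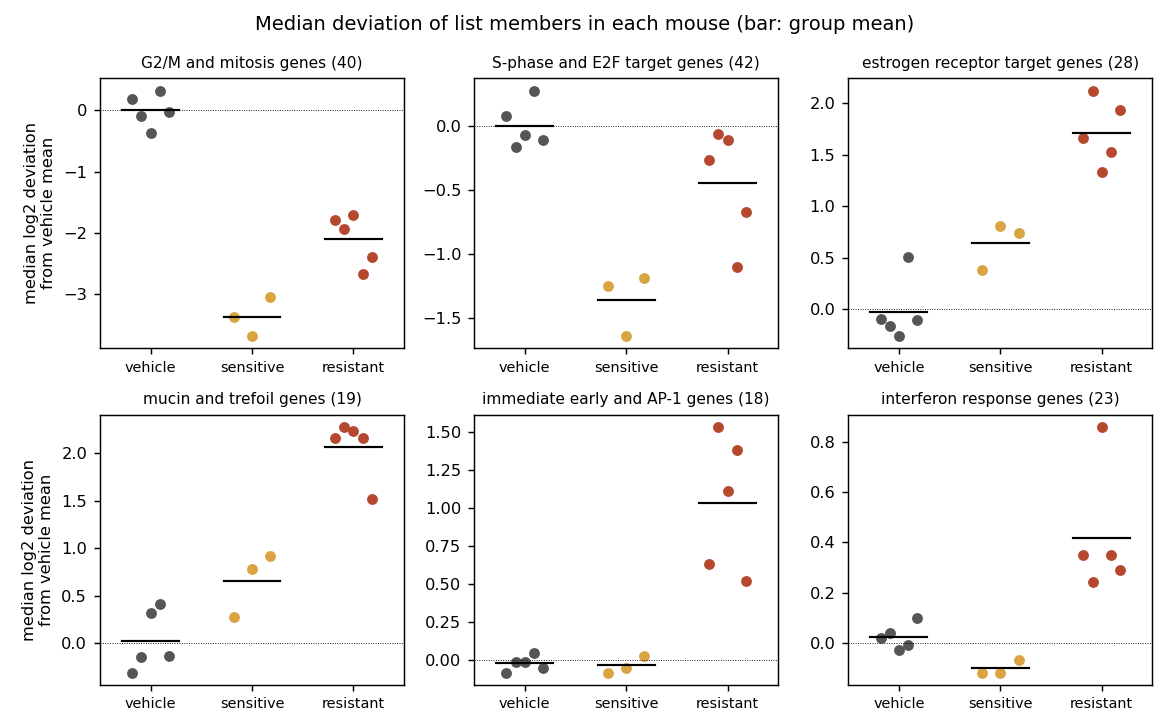
For 6 gene lists, each point is a mouse and gives the median over the list's members of the log2 deviation from the vehicle mean, less the median of all genes. Mitosis genes in resistant tumors lie between -2.67 and -1.71, below vehicle and above sensitive tumors, and S-phase genes of mice 9-6 and 9-7 lie inside the vehicle range.

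S-phase genes had a smaller median change than mitosis genes, and the resistant mice differed among themselves. Of 42 genes for DNA replication and other E2F targets, 22 were called lower, 19 of them under all 3 scalings (45.2% beside 16.7% of all genes), and the median change was -0.46. The median deviation of the list from the vehicle mean was -0.06 and -0.11 in mice 9-6 and 9-7, inside the vehicle range of -0.16 to 0.28, and -0.26 in mouse 9-3. It was -1.10 in mouse 9-8 and -0.67 in mouse 9-9. CCNA2, cyclin A2 of S phase and G2, fell from 31.3 ± 7.19 TPM to 4.24 ± 1.26 TPM (change -2.49 ± 0.19, adjusted p = 3.94e-07). GMNN, the inhibitor of replication licensing, fell by 1.42 on the log2 scale, EZH2, the histone methyltransferase of Polycomb, by 1.41, and GINS1, a subunit of the replicative helicase complex, by 1.08. RRM2, DTL, TYMS, MCM10 and PCNA fell as well, chosen after their values were seen, as were the genes of the next sentence. The core helicase genes MCM2 to MCM7 were not called in any direction, with changes between -0.55 for MCM6 and 0.10 for MCM3, and neither was E2F1 at 0.16. For MCM6 the resistant mice spread from 10.4 to 32.5 TPM and the vehicle mice from 25.5 to 41.5 TPM, and MCM6 was called lower without mouse 1-4, 9-6 or 9-7 (adjusted p = 0.0445, 0.0346 and 0.0215). Against sensitive tumors 28 of the 42 were called higher in resistant tumors, beside 9.56% of all genes. Of 13 replication-dependent histone genes tested, 8 fell under all 3 scalings (61.5%), among them HIST2H2BE (change -0.55) and HIST1H2BG (change -0.70). HIST1H1B, HIST1H1D, HIST1H3A and HIST1H4C, named after their values were seen, were below the filter, with vehicle means of 0.112 to 1.02 TPM. The count covers the tested members alone.

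The genes around CDK4 itself changed in different directions. CDK4, the target of the drug, was 288.8 ± 23.0 TPM in vehicle and 255.2 ± 8.89 TPM in resistant tumors, a change of -0.04 ± 0.06 relative to the median gene. It was called lower on TPM as deposited, where the fitted change tested was -0.17 (adjusted p = 0.0278). The call was lost after median-of-ratios scaling or quantile normalization and with libraries A alone. It was also lost without vehicle mouse 1-6 (adjusted p = 0.0529) or without resistant mouse 9-8 (0.0676). CDK6 was below the filter, at or under 0.395 TPM in all 10 mice. CCND1, which encodes the cyclin D1 partner of CDK4, was the one gene of 29 in the list that rose. It stood at 294.7, 237.4, 259.0, 301.4 and 222.5 TPM in vehicle mice and at 901.0, 542.8, 705.3, 715.2 and 771.2 TPM in resistant mice, with no overlap (change 1.59 ± 0.12, adjusted p = 2.33e-06). Sensitive tumors lay between, at 420.3 ± 51.2 TPM, and the resistant tumors were higher than these (change 0.82, adjusted p = 0.00291). Of the other genes of this list 13 fell, so that 3.45% rose and 44.8% fell, beside 11.3% and 16.7% of all genes. CDKN2C, the CDK4 inhibitor p18 and itself an E2F target, stood at 18.3, 18.3, 20.2, 20.5 and 21.0 TPM in vehicle mice and at 3.97, 3.52, 5.39, 2.97 and 3.77 TPM in resistant mice (change -1.95 ± 0.11, adjusted p = 5.87e-08). CCNE1, cyclin E1 of the CDK2 complex, fell from 12.6 ± 1.82 TPM to 5.13 ± 1.77 TPM (change -1.06 ± 0.19, adjusted p = 0.000328). RB1 fell by 0.36 on the log2 scale, from 32.4 to 22.9 TPM, and every resistant mouse remained at 18.6 TPM or more. CDKN2A, the locus of the CDK4 inhibitor p16, fell from 15.2 ± 5.24 TPM to 6.36 ± 2.68 TPM with overlap between the groups (adjusted p = 0.00253). Among 25 tested genes that have been reported in resistance to CDK4/6 inhibitors, 2 rose (8.0%) and 10 fell (40.0%), beside 11.3% and 16.7% of all genes. The risers were CCND1 and, at about 1 TPM, NRAS (change 0.46), which was named after its values were seen and lost its call without mouse 9-8 (adjusted p = 0.052). NRAS met the filter only through resistant mice. AURKA, FGFR1 and ERBB2 were among those that fell.

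**Figure D3:**
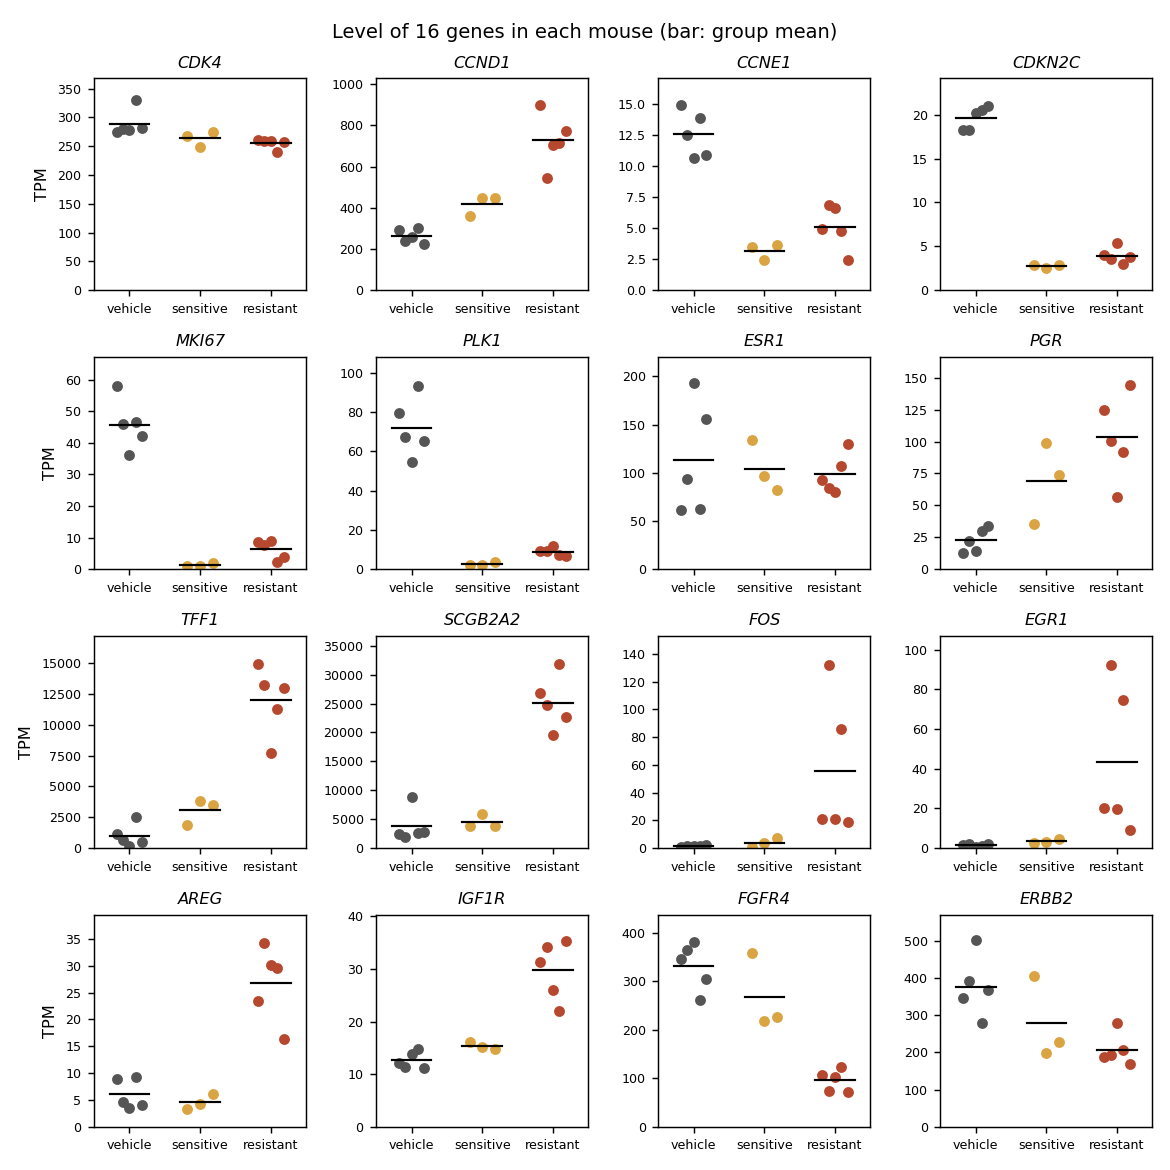
Each panel gives the TPM of a gene in every mouse, on an axis that starts at 0, with the group mean as a bar, for vehicle (5 mice), sensitive (3 mice) and resistant tumors (5 mice). CCND1, PGR, TFF1, SCGB2A2, AREG and IGF1R lie higher in resistant than in vehicle tumors without overlap, MKI67, PLK1, CDKN2C and FGFR4 lie lower, and ESR1 overlaps in all 3 groups.

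Estrogen receptor target genes rose broadly. Of 28 tested, 24 were called higher, 21 of them under all 3 scalings (75.0% beside 11.3% of all genes), and the median change was 1.71. For 20 of the 28 every resistant mouse lay above every vehicle mouse, which held for 6.63% of all genes. ESR1, which encodes the receptor, was not called: it stood at 61.1, 93.9, 193.2, 61.9 and 155.8 TPM in vehicle mice and at 92.1, 84.2, 79.9, 106.9 and 129.9 TPM in resistant mice (change 0.07 ± 0.29, adjusted p = 0.871). The vehicle mice spread more widely for ESR1 than the resistant mice, which all lay within the vehicle range. PGR, the progesterone receptor and a classical target, stood at 12.3, 21.8, 14.5, 30.2 and 33.6 TPM in vehicle mice and at 124.9, 100.5, 56.7, 92.0 and 144.4 TPM in resistant mice (change 2.32 ± 0.33, adjusted p = 0.000188). Its sensitive tumors averaged 69.2 TPM, and resistant and sensitive tumors were not told apart for PGR (adjusted p = 0.255). TFF1, the secreted trefoil peptide pS2, stood at 1138.4, 670.7, 138.6, 2539.7 and 451.8 TPM in vehicle mice and at 14887.5, 13239.3, 7698.9, 11264.4 and 13000.4 TPM in resistant mice (change 4.29 ± 0.56, adjusted p = 8.39e-05). TFF3 rose from 296.0 ± 109.6 TPM to 2318.4 ± 483.1 TPM, the lysosomal protease CTSD from 412.7 ± 66.3 TPM to 2112.2 ± 809.5 TPM, and the ubiquitin ligase SIAH2 from 41.8 ± 8.76 TPM to 155.9 ± 48.2 TPM. CTSD was at 490 TPM in sensitive tumors, and resistant tumors were higher than these (change 2.09, adjusted p = 0.000162). In all, 13 of the 28 were called higher in resistant than in sensitive tumors, beside 9.56% of all genes. Within the vehicle group mouse 1-6 had the highest list median, 0.51 above the vehicle mean, while the other vehicle mice were at -0.26 to -0.10 and the resistant mice at 1.33 to 2.12. Of 14 steroid receptors and cofactors 1 rose (7.14%), which was PGR, and 5 fell (35.7%), beside 11.3% and 16.7% of all genes. Among the falls were NCOA3 (change -0.78), NCOA2 (-0.75) and the glucocorticoid receptor gene NR3C1 (-0.59). NR3C2 was counted with the falls but met the filter only through vehicle mice.

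Secreted mucosal and mammary products rose with them. Of 19 mucin, trefoil, anterior gradient and secretoglobin genes tested, 15 rose under all 3 scalings (78.9% beside 11.3% of all genes). The median change was 2.19. TFF1 and TFF3 also belong to the estrogen receptor target list. MUC1, AGR3 and AGR2, the last named after its values were seen, also belong to the luminal list and are risers in both. SCGB2A2, which encodes mammaglobin A, became the most abundant transcript in every resistant library. It stood at 2381.2, 1968.2, 8880.2, 2670.0 and 2790.5 TPM in vehicle mice and at 26899.6, 24706.4, 19575.9, 31838.2 and 22582.8 TPM in resistant mice (change 3.11 ± 0.32, adjusted p = 1.44e-05). Vehicle mouse 1-5 lay above the other vehicle mice and below all resistant mice. TFF2 stood at 0.0 to 1.53 TPM in vehicle mice and at 11.4 to 53.3 TPM in resistant mice (change 4.37 ± 0.37), and AGR3, a disulfide isomerase of the secretory pathway, from 45.1 ± 24.6 TPM to 421.0 ± 86.9 TPM. MUC1, the cell surface mucin, rose from 688.8 ± 259.3 TPM to 2439.2 ± 562.2 TPM, and sensitive tumors were at 481.5 TPM, lower than resistant tumors (adjusted p = 0.000126).

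The 20 largest rises among genes with at least 5 TPM and no overlap between groups held further secreted and membrane proteins. SEMA3B, a secreted semaphorin, had the largest change (4.57 ± 0.40): it stood at 5.29, 3.65, 1.64, 8.90 and 1.93 TPM in vehicle mice and at 93.2, 120.2, 63.6, 90.1 and 148.3 TPM in resistant mice. TIMP3, which blocks matrix metalloproteinases, rose by 4.37, SERPINA6, corticosteroid-binding globulin, by 4.10, DOK7, an adaptor of the muscle kinase MuSK, by 4.06, and MGP, matrix Gla protein, by 3.70. The small GTPase RAB31, the scaffold PDZK1, the chloride channel protein CLIC6, the adenosine receptor ADORA1, the protease inhibitor SERPINA5 and the genes SYT8, BASP1, IFITM10 and SEC14L2 changed by 3.58 to 3.95. RAB31 was 8.66 TPM in sensitive, 9.06 TPM in vehicle and 152.6 TPM in resistant tumors (resistant against sensitive, adjusted p = 4.49e-05). Of the 20 largest falls 13 belong to the cell cycle lists and 7 do not. The largest of all was PVALB, the calcium buffer parvalbumin, from 65.4 ± 17.8 TPM to 2.79 ± 1.05 TPM (change -4.02 ± 0.21). The others were BAMBI, a decoy receptor for TGF-beta family ligands (-2.83), NEURL1B, a ubiquitin ligase (-2.55), CLCA2 (-2.49), AMOTL1, an angiomotin of cell junctions (-2.45), CDCA3 and HJURP, the chaperone that loads CENPA at centromeres.

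Immediate early genes, which growth factor and stress signals switch on within minutes, were higher in resistant tumors, to very different degrees among the mice. Of 18 tested, 14 rose under all 3 scalings (77.8% beside 11.3% of all genes) and the median change was 0.85. FOS, a subunit of the AP-1 transcription factor, stood at 0.725, 1.08, 1.18, 1.58 and 2.03 TPM in vehicle mice and at 20.9, 132.4, 21.1, 85.5 and 18.7 TPM in resistant mice (change 4.30 ± 0.53, adjusted p = 5.40e-05). Its partner-family gene FOSB stood at 0.94 to 1.31 TPM in vehicle mice and at 16, 102.4, 22.2, 231.2 and 7.26 TPM in resistant mice. The zinc finger gene EGR1 stood at 0.635 to 1.93 TPM in vehicle mice and at 20, 92.5, 19.8, 74.8 and 8.82 TPM in resistant mice (change 3.93 ± 0.49, adjusted p = 6.39e-05). Mice 9-6 and 9-8 were the highest and 9-9 the lowest for all 3 genes. EGR3 rose by 3.39 and the survival gene IER3 by 2.06. Sensitive tumors averaged 3.66 TPM for FOS and 3.28 TPM for EGR1, below resistant tumors (adjusted p = 0.00255 and 0.00393). The promoter of EGR1 is printed since 2 serum response elements of the CArG box kind, in capitals, lie in its 250 bases. That motif was present in 1.14% of all promoters and in 1 of 14 promoters of the list.
EGR1, chr5:138465229-138465478, plus strand: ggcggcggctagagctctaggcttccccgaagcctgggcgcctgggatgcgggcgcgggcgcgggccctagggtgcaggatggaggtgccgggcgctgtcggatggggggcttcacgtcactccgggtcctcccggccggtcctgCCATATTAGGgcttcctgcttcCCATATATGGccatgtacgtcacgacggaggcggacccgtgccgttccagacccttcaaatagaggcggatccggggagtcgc

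Genes of the growth factor pathways above these moved in both directions. Of 18 genes induced by ERK signaling, many of them its feedback inhibitors, 7 rose (38.9%) and 2 fell (11.1%), beside 11.3% and 16.7% of all genes. PHLDA1 rose from 2.25 to 4.58 TPM (change 0.92 ± 0.12), while the inhibitor SPRY1 fell from 5.32 to 1.2 TPM (change -1.43 ± 0.19). Of the other inhibitors, named after their values were seen, DUSP6 (change 1.23), SPRY2 (0.89) and SPRY4 (1.45) rose and DUSP5 (-0.53) fell. With members of at least 5 TPM alone, 2 of the list were called higher, CCND1 and IER3, which other lists here also hold. DUSP5 and SPRY1, the 2 that fell, had vehicle means of 79.7 and 5.32 TPM. The kinase gene BRAF fell by 0.52 on the log2 scale. Of 24 receptor tyrosine kinases 6 rose and 9 fell, of which NTRK2 and EPHB2 met the filter only through the group where they were high. EPHB2 lost its call without mouse 1-2, 1-6 or 9-8 (adjusted p = 0.0526 to 0.057). FGFR4, a receptor for fibroblast growth factors, stood at 346.1, 365.2, 381.3, 260.4 and 303.9 TPM in vehicle mice and at 106.3, 74.2, 102.9, 122.7 and 71.7 TPM in resistant mice (change -1.66 ± 0.17, adjusted p = 5.00e-06). FGFR1 fell from 125.9 ± 11.3 TPM to 72.6 ± 5.25 TPM, PTK7 from 17.8 to 7.46 TPM and ERBB2, the gene of HER2, from 376.5 ± 80.7 TPM to 206.6 ± 42.6 TPM (change -0.72 ± 0.19, adjusted p = 0.00314). IGF1R, the receptor for insulin-like growth factors, rose from 12.6 ± 1.55 TPM to 29.8 ± 5.66 TPM (change 1.29 ± 0.13, adjusted p = 1.53e-05). RET, the receptor for GDNF family ligands, rose from 1.08 to 14.9 TPM, and NTRK2, a neurotrophin receptor, stood at 0.201 and 4.25 TPM, with NTRK2, EPHB2 and RET named after their values were seen. Among ligands, ARTN, a GDNF family ligand, rose from 1.15 ± 0.184 TPM to 6.75 ± 1.92 TPM, and the EGFR ligand AREG from 6.06 ± 2.76 TPM to 26.8 ± 7.01 TPM, with 4.55 TPM in sensitive tumors (resistant against sensitive, adjusted p = 0.000341). The ERBB3 and ERBB4 ligand NRG1 fell from 2.95 to 0.745 TPM, and PDGFA from 11.8 to 6.06 TPM.

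Genes of the TGF-beta, Notch, WNT and PI3K pathways were counted beside the 11.3% of all genes that rose and the 16.7% that fell. Of 22 genes for BMP and TGF-beta signaling, 7 rose and 7 fell (31.8% each), and TGFBR3 and FST among the former met the filter only through resistant mice. BMP7, a ligand, fell from 3.27 to 0.819 TPM, and the co-receptor TGFBR3 stood at 0.473 TPM in vehicle and 3.76 TPM in resistant tumors. The target ID2 fell from 77.4 to 31.3 TPM. The related genes ID1 (11.0 to 59.7 TPM, change 3.18) and ID3 (25.4 to 104.3 TPM, change 2.57) rose, named after their values were seen. Of 14 Notch genes 2 rose (14.3%) and 6 fell (42.9%, with DLL3 through the filter as above), among them the receptors NOTCH1 (-0.73) and NOTCH3 (-0.64) and the feedback gene NRARP (-1.11). In the WNT list of 23, 2 rose (8.7%) and 6 fell (26.1%), and WNT4 and FZD5 among these met the filter only through the group where they were high. LEF1, a transcription factor that acts with beta-catenin, stood at 1.11, 1.98, 7.94, 2.81 and 4.46 TPM in vehicle mice and at 24.1, 55.2, 34.1, 28.9 and 29.5 TPM in resistant mice (change 3.19 ± 0.32, adjusted p = 1.24e-05), while RNF43, which removes WNT receptors from the membrane, fell by 1.39. In the PI3K, AKT and mTOR list of 24, 7 rose (29.2%) and 5 fell (20.8%). IRS2, an adaptor of insulin receptors, rose by 1.46 and the regulatory subunit PIK3R1 by 0.55, and the mTOR activator RHEB fell by 0.46.

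Interferon response genes rose in part, and mouse 9-7 carried the highest values. Of 23 tested, 8 rose, beside 11.3% of all genes, and the median change was 0.40. The list median lay at 0.86 above the vehicle mean in mouse 9-7 and at 0.24 to 0.35 in the other resistant mice, against -0.03 to 0.10 in vehicle mice. IFI6 stood at 36.7, 36.9, 207.5, 57.9 and 23.3 TPM in resistant mice and at 6.56 to 16.1 TPM in vehicle mice (change 2.23 ± 0.44, adjusted p = 0.00206). IFITM2 rose by 0.84, SAMD9 by 0.85, and IFIT2, at about 1 TPM, was higher by 0.59, though IFIT1 and IFIT2 met the filter only through resistant mice. Of 12 complement and acute phase genes 8 rose, with C3 and C1S through the filter in the same way. SERPINA1, which encodes antitrypsin and is also counted among the estrogen receptor targets, rose from 68.1 ± 20.1 TPM to 390.6 ± 172.5 TPM, and SERPINA3 from 218.4 ± 201.4 TPM to 1340.0 ± 328.9 TPM. In the antigen presentation list HLA-F rose (1.19) and the immunoproteasome subunit PSMB9 fell (-0.59). ICAM1, an adhesion molecule induced by NF-kB, stood at 0.451 TPM in vehicle and 2.58 TPM in resistant tumors and met the filter only through the latter.

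Luminal and basal genes changed in both directions, and are counted beside the 11.3% of all genes that rose and the 16.7% that fell. Of 25 luminal genes 4 rose (16%) and 7 fell (28%), with a median of -0.02. AGR3 and MUC1, above, rose, and the transcription factors ELF5 (-1.04) and TFAP2B (-0.94) fell, as did GATA3 (-0.52). Of 18 genes of basal and squamous epithelium 5 rose and 5 fell (27.8% each), and SPRR3 among the former met the filter only through resistant mice. The falls were KRT14, KRT79 and CDH3 and, named after their values were seen, KRT16 and KRT17, and KRT14 and KRT79 are counted again among the skin markers below, where those of KRT79 by mouse are given. KRT16 lost its call without mouse 1-4, 1-6, 1-9 or 9-9 (adjusted p = 0.0579 to 0.0643). Of the others, keratin 15 (KRT15) rose from 6.16 to 39.4 TPM and the integrin ITGA6 from 6.98 to 20.5 TPM, and the cadherin CDH3 fell from 29.2 to 11.0 TPM. Of the 13 mesenchymal genes, TGFB1, FN1 and THBS1 rose (23.1%) and TWIST1 fell (7.69%). In the BCL2 family list of 16, 2 rose (12.5%) and 3 fell (18.8%), near the shares of all genes. The survival gene BCL2, an estrogen receptor target, rose from 42.4 ± 5.43 TPM to 81.2 ± 14.0 TPM, while the death-promoting genes BMF (-1.97) and BIK (-1.13) fell. Of 23 p53 targets 1 rose, the stress cytokine GDF15, and 3 fell, which is 4.35% and 13% and near the shares of all genes.

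**Figure D4:**
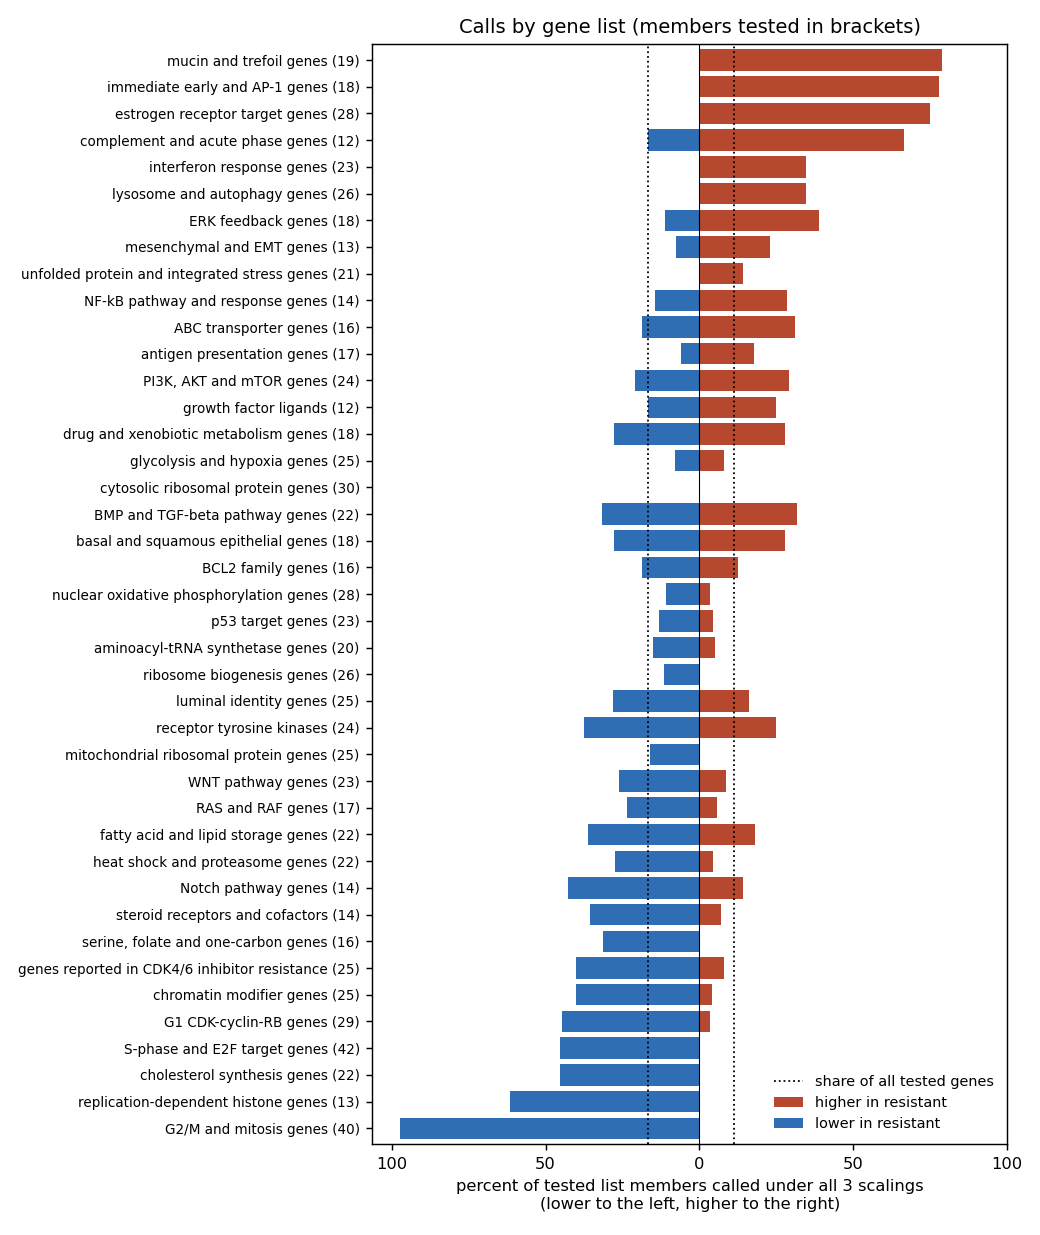
For each gene list with at least 10 members tested, bars give the percent of members that fell (to the left) or rose (to the right) under all 3 scalings, and the dotted lines mark the same shares of all genes tested, 16.7% and 11.3%. Mucin and trefoil, immediate early and estrogen receptor target genes stand at the top and mitosis genes at the bottom.

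Ribosomal protein genes did not pass the test, and several metabolic lists held falls. None of the 30 cytosolic ribosomal protein genes was called by limma, 2 had an unadjusted p under 0.05, and the alternatives called 0 to 7 of them. Their median lay 0.12 above the median gene. Of 22 cholesterol synthesis genes 10 fell (45.5%, beside 16.7% of all genes), with a median of -0.30, among them SQLE, squalene epoxidase (59.9 ± 10.8 TPM to 29.9 ± 1.41 TPM). Of 16 genes for serine, folate and one-carbon metabolism 5 fell (31.2%), including PHGDH, the first enzyme of serine synthesis (58.0 to 25.6 TPM), and MTHFD2 (-0.38). In the heat shock and proteasome list 6 of 22 fell (27.3%), all of them heat shock genes, among them HSP90AA1, from 2409.9 ± 354.4 TPM to 1271.7 ± 150.3 TPM. No proteasome gene of the list was called under all 3 scalings. Of 25 chromatin modifiers 10 fell (40.0%), among them the DNA methyltransferase DNMT3B (-1.19) and TET3 (-0.79). Of 26 genes for lysosomes and autophagy 9 rose (34.6%, beside 11.3% of all genes), with a median of 0.28. CTSS among these met the filter only through resistant mice and was not called without mouse 1-2 (adjusted p = 0.0515). WIPI1 went from 10.5 to 31.0 TPM and NPC2 from 138.8 to 212.5 TPM. SLC2A1, the glucose transporter GLUT1, rose from 54.7 ± 7.21 TPM to 109.3 ± 11.7 TPM, and COX6C, a subunit of cytochrome oxidase, from 366.4 to 649.5 TPM, the one riser of 28 oxidative phosphorylation genes. In that list 10.7% fell, and in the glycolysis and hypoxia list 8.0% fell, both below the share of all genes. Of 16 ABC transporters 5 rose (31.2%), among them ABCC11 (change 1.73) and ABCC12 (1.76), whereas 3 fell (18.8%), among them ABCA12 (-1.18).

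Markers of other cell types that a tumor could hold were low for fibroblasts, vessels and leukocytes. Those named at or near 0 were chosen after their values were seen. In these bulk samples fewer cells of a type and less RNA per cell cannot be told apart, and the sources used here do not state how reads of mouse origin were handled. The 13 fibroblast markers summed to 10.8 to 23.5 TPM in vehicle and 10.0 to 15.1 TPM in resistant tumors, with POSTN at 0 in all 10 mice and DCN and PDGFRB near 0. Most of the sum came from COL1A1 (means 9.93 and 7.28 TPM) and ACTA2 (6.47 and 4.09 TPM), neither of them called. COL1A1 was called lower without mouse 9-7 (adjusted p = 0.0481) and ACTA2 without mouse 1-5 (adjusted p = 0.00376). The 10 endothelial markers summed to 2.32 to 3.64 TPM and 4.94 to 6.67 TPM, with CDH5 at 0 and ENG as the one called, from 1.26 to 3.8 TPM. The 12 myeloid markers summed to 5.03 to 8.53 TPM and 10.5 to 17.3 TPM: CD68 (2.33 to 7.97 TPM), LYZ and FCER1G rose, CSF1R fell, and AIF1, C1QB and TYROBP were at 0 in all 10 mice. The call of CSF1R was lost without mouse 1-6, 1-9, 9-3, 9-7 or 9-9 (adjusted p = 0.0527 to 0.0757). FCER1G and CSF1R met the filter only through the group where they were high. The lymphocyte markers summed to 1.75 to 3.41 TPM and 2.26 to 3.43 TPM, with CD3D and CD3E at 0. Most of this sum came from CD8A (means 2.5 and 2.13 TPM), which was not called. The adipocyte markers summed to 1.64 to 5.61 TPM and 1.51 to 2.85 TPM, and the skeletal muscle markers to 139.5 to 312.2 TPM and 125.9 to 179.9 TPM. The muscle sum was nearly all MB, myoglobin, at means of 223.7 and 153.3 TPM, with DES and TNNT3 at 0 in all 10 mice and the other 5 genes at most at 1.08 TPM. Of the 12 keratinocyte and sebaceous markers, KRT79, AWAT2 and KRT14 fell, the list summed to 1218.3 to 2887.8 TPM in vehicle and 910.7 to 1665.5 TPM in resistant tumors, nearly all of it from the lipid synthesis genes FASN (means 1194.4 and 834.8 TPM) and SCD (406.8 and 332.9 TPM), neither of them called. KRT1 and MC5R were at 0 and KRT5, LOR and FLG near 0. Vehicle mice 1-4, 1-6 and 1-9 were high for KRT79, AWAT2 and KRT14: KRT79 stood at 3.53, 20.1, 3.21, 19.7 and 18.9 TPM in vehicle mice and at 0.52 to 2.14 TPM in resistant mice, with 28.7 TPM in sensitive tumors. CLCA2, above, was highest in these 3 mice too, and the part of skin cells in its fall was not tested.

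Changes were small when summarised over chromosome arms. Over 41 arms with at least 50 of the 12910 tested genes that have a position in GENCODE 29 (GRCh38), the median change relative to all genes ranged from -0.11 on 7q to 0.12 on 16p, and it was within 0.05 of 0 on 28. On 16p the 343 genes of the resistant mice lay at 0.10 to 0.17 and the vehicle mice at -0.12 to 0.09. The vehicle mice differed among themselves as well: on 16q mouse 1-2 lay at -0.16 and mouse 1-5 at 0.13, and on 3p the same mice lay at 0.13 and -0.16.

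**Figure D5:**
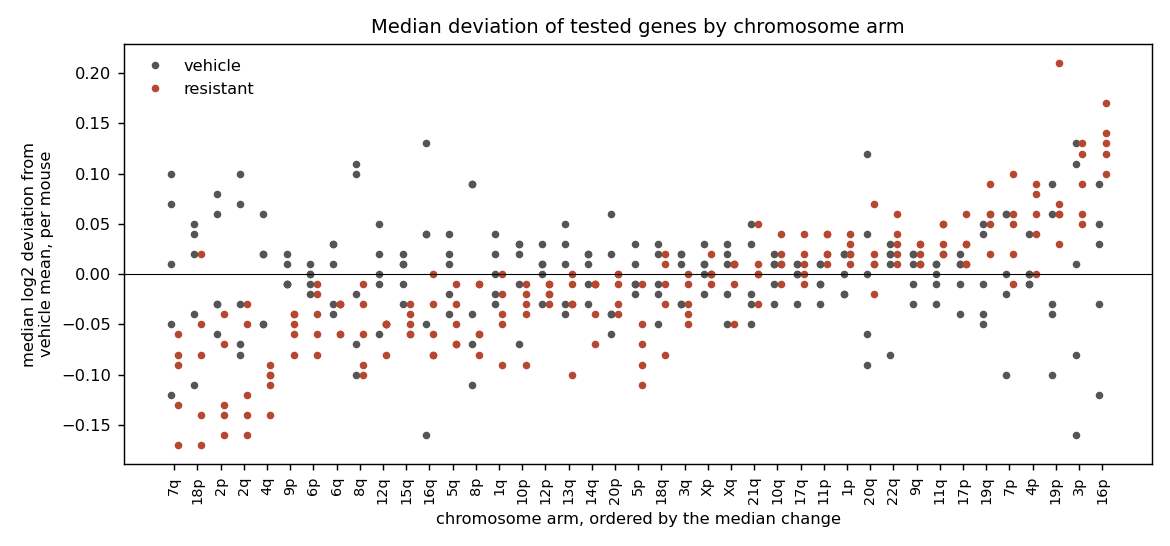
For each chromosome arm, points give the median log2 deviation of its tested genes from the vehicle mean, less the median of all genes, in each vehicle and resistant mouse. Arms are ordered from 7q (-0.11) to 16p (0.12), with all resistant mice above all vehicle mice on 3 arms and below them on 3.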

How the data were processed

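RNA-seq was measured in 26 libraries from 13 mice, 20 of them from vehicle and resistant tumors. The deposited table gives TPM, scaled by the authors to a fixed total per library. These totals were 999849.7 to 999889.5 in the 20 libraries, with 16914 to 17662 genes above 0. FastQC, STAR, HTSeq and RSEM, with GRCh38 and GRCm38, are listed in the submitters' processing notes, where no version or role is stated. Without read counts the depth is unknown, and intervals for counting error cannot be given. Of 30332 entries 1 names no gene and was left out, and 23 carry a number in place of a symbol. All samples carry batch label 1.

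Libraries A and B were averaged per mouse as log2(TPM + 1), and the labels do not give the step at which they were divided. Genes at 1 TPM or more on average in at least 3 mice were kept (14079). The limma-trend fit (limma 3.58.1, R 4.3.3) used the 13 mice and 3 groups, with two-sided p-values adjusted by Benjamini-Hochberg over all genes. Errors of TPM means are SDs among mice, and those of log2 changes come from the fit as SEs. Log2 changes on this scale understate those of low genes. P-values set the difference of group means against the spread between mice within groups. They do not cover variation between the separate studies. The text names fixed genes, up to 4 members of each list by smallest adjusted p, and the 20 largest rises and 20 largest falls at 5 TPM or more; other genes are marked as chosen after their values were seen. A few genes that this rule names are not reported here. Members, lists and this rule were chosen with earlier results of these data known. The fit was tested on simulated data. Alternatives were pseudocounts of 0.25 and 4, other filters, median-of-ratios and quantile scaling, robust and weighted fits, the 2 groups alone, libraries A or B alone, all 26 libraries with the mouse or the library letter as a block, and each mouse left out; the rule of a call under all 3 scalings was added after seeing the data. Promoters are from RefSeq (GRCh38.p14) and gene positions from GENCODE 29.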

Additional observations from a re-analysis of the deposited data

Results flagged for a closer look

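For 173 of the tested genes named in the text, 346 groups of 5 mice were examined. Of these groups 25 (7.23%) held a mouse whose gap to the nearest other mouse was over 0.71 of the group's range on the log2 scale. Chance gives about 1 in 20 groups. Vehicle mouse 1-6 was the highest vehicle mouse for CDK4 (329.8 TPM, others 275.5 to 281.6), EGR3 (14.6, others 2.39 to 3.5), PDZK1 (95.0, others 15.6 to 22.7) and TFF3 (490.6, others 228.6 to 261.2). EGR3, PDZK1 and TFF3 rose in resistant tumors. Vehicle mouse 1-5 was high for SCGB2A2 (8880.2 TPM, others 1968.2 to 2790.5), SCGB1D2 (1769.3, others 294.9 to 473.2), ALDH3B2 (1468.6, others 518.0 to 681.5) and FASN (2508.3, others 737.8 to 976.0), and low for CDH3 (14.7, others 28.5 to 34.5). Among the other vehicle mice GINS1 was low in mouse 1-4 (10.5 TPM, others 12.2 to 12.8), NRARP was low in mouse 1-2 (8.94, others 11.5 to 12.6) and PIK3R1 was high in mouse 1-9 (24.3, others 21.1 to 21.7). SPRR3 was high in vehicle mouse 1-6 (1.0 TPM, others 0.275 to 0.43) and in resistant mouse 9-7 (3.67, others 0.925 to 1.36).

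Resistant mouse 9-7 was low for TFF3 (1487.2 TPM, others 2381.9 to 2694.7) and CD68 (3.77, others 8.3 to 10.2), and high for CLCA2 (1.44, others 0.59 to 0.705) and ALDH3B2 (331.1, others 126.7 to 148.6). Resistant mouse 9-8 was low for CDK4 (239.4 TPM, others 257.7 to 260.8) and RB1 (18.6, others 23.0 to 25.0). Resistant mouse 9-6 was low for NRG1 (0.51 TPM, others 0.785 to 0.835) and PSMB9 (0.83, others 1.86 to 2.18), and high for SERPINA3 (1912.0, others 1075.7 to 1269.9). Resistant mouse 9-3 was low for HIST1H2BG (21.1 TPM, others 32.0 to 37.1) and CTSS (0.75, others 1.31 to 1.53). CDK4 lost its call without mouse 1-6 or 9-8, and the call of no other gene of these 2 paragraphs changed without the mouse named.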

How the results depend on the processing

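The scaling of the samples moved the counts over all genes. The 1624 genes called higher became 2541 after median-of-ratios scaling. The 4570 called lower became 2438 after that scaling, 2770 after quantile normalization and 2357 when a call under all 3 scalings was required. Higher genes made up 26.2% of calls on TPM as deposited, 51.0% after median-of-ratios scaling and 45.8% after quantile normalization. The median change of all genes, -0.136, was -0.002 and -0.026 under these scalings and -0.032 with no filter on low values. Without each mouse in turn 1360 to 1694 genes were called higher and 3898 to 4903 lower. With the library letter as a replicate block over 26 libraries, 1614 genes were called higher and 4696 lower. The median change of the mucin and trefoil genes, 2.19, was 1.71 with a pseudocount of 4 and 2.75 with a filter at 5 TPM, and that of 16p, 0.12, was 0.04 with no filter. The change of CDK4, -0.04, was 0.0 with libraries A alone and ranged from -0.06 to 0.03 over the mice left out. The cause of these shifts was not tested. Of 173 of the tested genes named in the text, 161 were called, and 151 of these kept their call in 23 alternatives. CDK2, CDK4, CSF1R, CTSS, EPHB2, ERBB3, KRT16, MB, NRAS and SPRR3 did not. Depth is unknown, which limits what can be said of low genes.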

Other observations

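Genes for drug and lipid handling were counted beside the 11.3% of all genes that rose and the 16.7% that fell. Of 18 tested genes of drug and xenobiotic metabolism, 5 rose and 5 fell under all 3 scalings (27.8% each). ALDH3B2, an aldehyde dehydrogenase, stood at 681.5, 609.2, 1468.6, 518.0 and 661.5 TPM in vehicle mice and at 139.6, 148.6, 331.1, 128.7 and 126.7 TPM in resistant mice (change -2.03 ± 0.30, limma adjusted p = 0.000108). The groups did not overlap. SULT1A1, a sulfotransferase of phenols and estrogens, rose from a mean of 52.3 to 85.5 TPM. UGT2B15, which glucuronidates steroids, was at most 0.19 TPM in vehicle mice and at least 0.525 TPM in resistant mice. AKR1C3, a steroid ketoreductase, was at most 0.685 TPM in vehicle mice and at least 0.88 TPM in resistant mice. UGT2B15 and AKR1C3 among the rises and CYP2B6 among the falls reached 1 TPM in at least 3 mice only through the group where they were high.

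Of 22 genes for fatty acids and lipid storage 4 rose (18.2%) and 8 fell (36.4%). CPT1A, which feeds fatty acids into mitochondria, fell by 0.40 on the log2 scale, and ACSS2, which makes acetyl-CoA from acetate, rose by 0.77. Of 20 aminoacyl-tRNA synthetase genes, SARS rose (change 0.39) and 3 fell, which is 5% and 15% and below both shares of all genes.

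SOSTDC1, a secreted antagonist of BMP and WNT ligands, was chosen after its values were seen. It stood at 1.21 to 3.15 TPM in vehicle mice and at 0.0 to 0.1 TPM in resistant mice.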
